A study of Mus musculus with 4 samples.

Results

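Neuromedin, CART, VIP, vasopressin and galanin genes were followed in the cervical spinal cord of NC/Nga mice, an inbred strain that develops a dermatitis resembling human atopic dermatitis when kept in an ordinary animal room. The 10 genes were 8 peptide precursor genes (Nms, Nmu, Cartpt, Vip, Avp, Oxt, Adcyap1 and Gal) and 2 receptor genes (Nmur2 and Galr1). All probes whose platform annotation carries 1 of these symbols were taken, which gave 12 of the 45281 probes on the array. Cartpt and Vip had 2 probes each and the other 8 genes 1. The members were chosen by their family together with the CV minus SPF differences of earlier results on these same arrays, in which Nms and Cartpt stood out. The difference between housing groups is therefore given as a description, with no test.

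Total RNA of whole cervical cord from male NC/Nga mice aged 9 weeks was hybridised to Illumina bead arrays, 1 array per sample. The SPF group (2 arrays) came from specific-pathogen-free housing and had a normal phenotype. The conventional group, written CV (2 arrays), came from conventional housing and had the atopic dermatitis phenotype, so housing and skin disease cannot be told apart. Nothing in the labels says whether the arrays of a group are separate animals or pools, so errors cannot be read as the spread between animals.

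Neuropeptides are cut from larger precursors, stored in dense-core vesicles and released to act on G protein-coupled receptors. Neuromedin U and neuromedin S are related peptides that share the receptors encoded by Nmur1 and Nmur2. In mice the Nmur2 receptor is known from the superficial dorsal horn and has been linked to pain and itch. CART peptides are found in sympathetic preganglionic neurons and in sensory pathways, and galanin in dorsal horn interneurons and sensory neurons. VIP and PACAP, the product of Adcyap1, are related peptides that share receptors. Vasopressin and oxytocin are best known as hypothalamic hormones whose axons also reach the cord.

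The sequences just upstream of 4 genes are shown because these were the genes whose signal was higher on both CV arrays than on both SPF arrays, and they let a reader see which short response elements lie there. Each line holds the 250 bases before the annotated transcription start, 5′ to 3′ on the strand of the gene, from RefSeq, build GRCm38.p6 (the C57BL/6J reference, not NC/Nga). Capitals mark TGACG, the half-site of the cAMP response element, and CACGTG, an E-box, on either strand. The windows are chr1:38938899-38939148 (plus strand), chr13:99900684-99900933 (minus strand), chr10:5638968-5639217 (plus strand) and chr2:130582589-130582838 (minus strand).
Nms: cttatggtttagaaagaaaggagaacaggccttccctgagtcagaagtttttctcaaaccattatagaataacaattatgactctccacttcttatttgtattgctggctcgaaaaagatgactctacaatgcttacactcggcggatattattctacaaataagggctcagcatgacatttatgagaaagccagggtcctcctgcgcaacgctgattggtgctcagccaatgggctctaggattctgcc
Cartpt: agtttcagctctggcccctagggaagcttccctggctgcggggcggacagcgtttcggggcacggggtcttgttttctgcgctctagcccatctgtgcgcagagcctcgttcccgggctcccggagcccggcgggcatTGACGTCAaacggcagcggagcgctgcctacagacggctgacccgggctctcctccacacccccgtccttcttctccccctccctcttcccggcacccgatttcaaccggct
Vip: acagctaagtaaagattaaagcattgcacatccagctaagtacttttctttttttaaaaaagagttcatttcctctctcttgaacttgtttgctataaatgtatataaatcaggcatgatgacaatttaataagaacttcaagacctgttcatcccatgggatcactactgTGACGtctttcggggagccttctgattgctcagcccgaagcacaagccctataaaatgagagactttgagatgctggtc
Avp: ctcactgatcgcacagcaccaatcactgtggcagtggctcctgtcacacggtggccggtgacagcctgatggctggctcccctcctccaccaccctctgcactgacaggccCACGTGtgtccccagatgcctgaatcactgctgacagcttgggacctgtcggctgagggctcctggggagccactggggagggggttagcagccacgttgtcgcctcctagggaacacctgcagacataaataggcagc

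Of the 10 members, 9 matched the promoter table. Cartpt held the full cAMP response element TGACGTCA, which contains 2 overlapping half-sites and begins 112 bases before the start. Vip held 1 half-site, 79 bases before the start, and Avp held 1 E-box, 139 bases before it. The Nms window held none of these letters. Among the other members, Nmu held a half-site and an E-box and Adcyap1 a half-site, so half-sites lay in 4 of 9 genes and E-boxes in 2 of 9. Counted by window, 5 of 10 member windows held the half-site, 1 the full element and 2 the E-box. Adcyap1 has 2 overlapping windows that hold the same half-site. Over all 32851 promoter windows of the same length, 17.8% held the half-site, 1.55% the full element and 6.02% the E-box. A match is a description of the letters only.

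The arrays were alike in depth of signal. Probes above background (detection p under 0.05) made up 44.9% to 46.3% of each array, and median signals lay between 113.6 and 119.4. Replicates correlated at a rank correlation of 0.923 in SPF and 0.915 in CV cord. Probes above background on 2 or more of the 4 arrays were kept, 21065 in all. In limma's moderated test over all kept probes, 0 (0%) passed a Benjamini-Hochberg adjusted p of 0.05, the lowest adjusted p was 0.535, and 663 had an unadjusted p under 0.05. Levels below are background-corrected, quantile normalized log2 signals. Errors on a difference are the model's standard errors with n = 2 arrays per group. They are moderated, that is, drawn toward the spread of kept probes of similar level. For every kept member probe except that of Oxt, those of Nms and Cartpt included, they are smaller than the probe's own spread would give.

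Of the 12 member probes, 10 were kept, 6 were above background on all 4 arrays and 2 on none. Those on none were the probe of Nmur2 and a further probe of Vip. Both CV arrays lay above both SPF arrays for 5 of the 10 kept probes, those of Nms, Cartpt (2 probes), Vip and Avp, and in none did they lie below. Over all kept probes the same order was found in 16.4%, and the opposite order in 14.5%. In each of these 5 the measured CV mean was also at least 1 log2 unit higher, which held for 0.0760% of kept probes. For Avp that rests on SPF values under background, and its bound against the background limit, 1.85-fold, is smaller. For Vip it rests in part on SPF replicate 1, which lay under background, and without that array the difference was 0.87. In the authors' normalized values only 1 of the Cartpt probes, at 1.09, stayed at least 1 log2 unit higher. Since the list was chosen with this contrast in view, nothing is read from these shares. In bulk tissue, more cells of a type and more RNA per cell cannot be told apart.

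**Figure D1:**
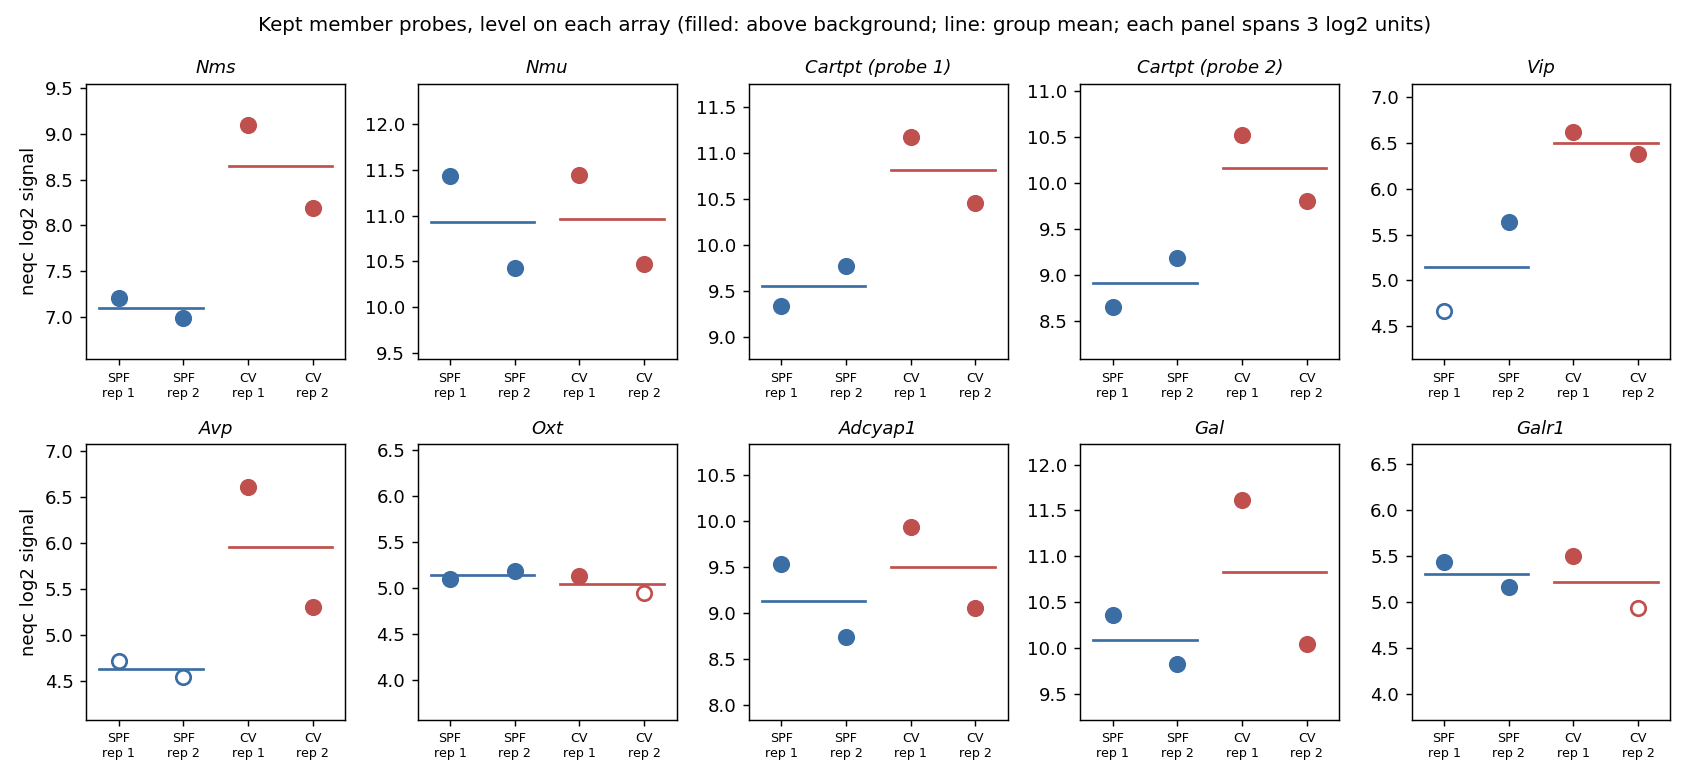
Normalized log2 signal of each kept member probe on the 4 arrays, with SPF in blue and CV in red. Filled points are above background, open points are not, and lines are group means. Nms, Cartpt, Vip and Avp are higher on both CV arrays, while Nmu falls at about 11.4 on both arrays numbered 1 and at about 10.4 to 10.5 on both arrays numbered 2.

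Nms encodes neuromedin S. Its deposited signals were 239.9 and 221.6 on the SPF arrays and 634.3 and 368 on the CV arrays, all 4 above background. On the log2 scale these were 7.21 and 6.995 against 9.09 and 8.19. Both CV arrays lay well above the SPF pair, which were 0.21 log2 units apart, and the CV pair were 0.90 apart. The difference, CV minus SPF, was 1.54 ± 0.29, or 2.91-fold. It ranked 4 from the top among all kept probes. Nothing is read from that rank, since Nms was chosen with this contrast known. The difference was 1.09 without CV replicate 1 and 1.99 without CV replicate 2. The background correction sets part of its size: with none, on log2(signal + 16), it was 1.07, and in the authors' own normalized values, whose low end is compressed, 0.76.

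Nmu encodes the sister peptide, neuromedin U, and did not follow the housing groups. Its signals were 2903.1 and 1475 in SPF cord and 2912.1 and 1460.1 in CV cord. The log2 levels were 11.43 and 10.43 against 11.45 and 10.47. The group means therefore differed by 0.03 ± 0.38. The array numbered 1 was 1.997-fold above the array numbered 2 in the SPF group and 1.96-fold in the CV group. A gap this wide between replicates was found in 1.73% of kept probes in SPF and 1.65% in CV cord, where the median gaps were 0.21 and 0.20. With a single array left out, the Nmu difference was lowest at -0.47 (SPF replicate 2 left out) and highest at 0.53 (SPF replicate 1 left out).

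The astrocyte markers as a list had a similar order of arrays. Their summed normalized signal (5 of 5 markers kept) was 38473 and 24435 in SPF and 42562 and 25026 in CV cord, higher on the array numbered 1 in each group. Gfap was the brightest of these markers, and Slc1a2 ran the other way in SPF cord (log2 levels of 10.17 and 10.26). The order was not particular to astrocytes. Sums of the receptor, nerve injury, hypothalamic, microglia, red blood cell and muscle lists, described below, had it too. Those of the general neuronal and cholinergic lists ran the other way in both groups. The part of any list in the Nmu values was not tested. Nmur2, the neuromedin receptor gene of the dorsal horn, gave signals of 110.5 and 103.9 in SPF and 110.2 and 104.7 in CV cord, with detection p-values from 0.187 to 0.649. Its probe was thus not well above background anywhere, which bounds its level and does not show absence. The probe of Nmur1, the other neuromedin receptor gene, was likewise not above background on any array.

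**Figure D2:**
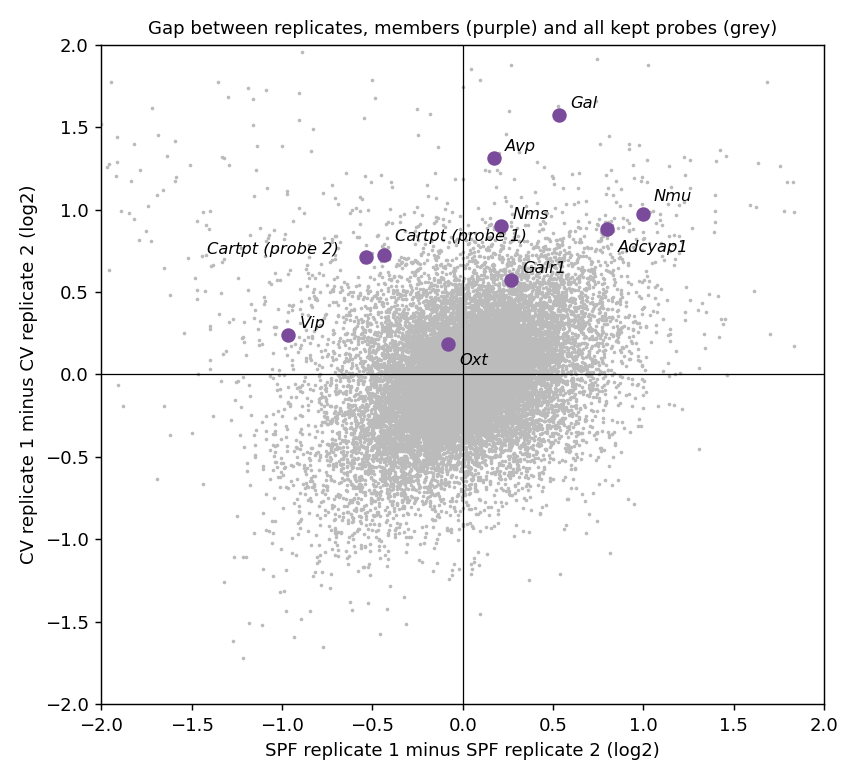
Gap between the 2 replicates of each group in log2 units, SPF on the x axis and CV on the y axis, for the kept member probes (purple) and all kept probes (grey, with 53 probes outside the axes). Nmu (0.998 and 0.973) and Adcyap1 (0.80 and 0.88) lie near the diagonal, and Gal and Avp have their wide gap in the CV pair.

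Cartpt, the precursor gene of CART peptides, was read by 2 probes that ran in parallel. The first gave signals of 752.1 and 969.4 in SPF and 2428.9 and 1447.5 in CV cord. The second gave 503.1 and 675.8 against 1551.7 and 949.3. Both probes put SPF replicate 1 lowest, SPF replicate 2 next, then CV replicate 2, and CV replicate 1 highest. The differences were 1.27 ± 0.25 (2.41-fold) and 1.25 ± 0.26 (2.38-fold). With 1 array left out they lay between 0.91 and 1.63 for the first probe and between 0.89 and 1.61 for the second, lowest without CV replicate 1 and highest without CV replicate 2. Both probes target the same transcript and count as 1 measurement of the gene. In the authors' normalized values the differences were 1.09 and 0.97.

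Vip encodes vasoactive intestinal peptide. One probe gave signals of 104.3 and 142.6 in SPF and 184.6 and 169.8 in CV cord, above background on 1 of 2 SPF arrays and on both CV arrays. Its log2 levels were 4.67 and 5.63 against 6.62 and 6.38, a difference of 1.35 ± 0.33. No fold is given, since SPF replicate 1 lay under background. The CV pair agreed within 0.24, and the spread lay in the SPF pair, 0.96 apart. The further probe of Vip gave 101.7 and 115.5 against 111.6 and 101, not above background on any array, so the 2 probes disagree and the value belongs to its probe. Leaving out SPF replicate 1 gave a difference of 0.87, and leaving out SPF replicate 2 gave 1.83. It was 0.51 with no background correction and 0.26 in the authors' values.

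Adcyap1, the precursor gene of PACAP, was above background on all arrays, with signals of 848.9 and 520.1 in SPF and 1067.5 and 595.9 in CV cord. The groups overlapped, because SPF replicate 1 lay above CV replicate 2. The difference was 0.37 ± 0.33, and it was -0.08 without CV replicate 1, -0.03 without SPF replicate 2 and 0.81 without CV replicate 2. As with Nmu, replicate 1 exceeded replicate 2 in each group, by 1.74-fold in SPF and 1.85-fold in CV cord. The PACAP receptor gene Adcyap1r1 had 1 of 3 probes kept, at log2 levels of 6.41 and 5.44 against 6.33 and 6.02 (difference 0.25 ± 0.34). Vipr1, a receptor gene shared by both peptides, was not above background with any of its 4 probes.

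Avp and Oxt lie next to each other on chromosome 2, with 0 annotated genes between them, and encode vasopressin and oxytocin. Avp gave signals of 106.3 and 102.7 in SPF cord, not above background, and 184.2 and 127.6 in CV cord, above background on both. After background correction the CV mean was at least 1.85-fold above the SPF mean. This takes the lowest signal above background as the level of the SPF arrays where they lay under it. That bound belongs to the corrected values with all 4 arrays: the deposited signals averaged 104.5 and 155.9, and smaller differences under other settings are given below. The measured group means were 4.62 and 5.96 log2 units. Of the CV arrays, replicate 1 stood at 6.61. Replicate 2 stood at 5.30, close to the lowest levels above background on the SPF arrays, 5.06 and 5.08, so the bound does not hold for it alone. Avp was kept only through its CV arrays, so the sign of its difference largely follows from where it was detected. The spread lay in the CV pair, 1.31 log2 units apart. Its difference was 1.33 ± 0.40 with all arrays, 0.67 without CV replicate 1, 1.99 without CV replicate 2, 0.51 with no background correction and 0.25 in the authors' values.

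Oxt stayed near the background limit, with signals of 120 and 127.5 in SPF and 120.6 and 117.2 in CV cord, and was above background on all arrays but CV replicate 2. The difference was -0.10 ± 0.21 and the groups overlapped. Among the receptor genes of these hormones, Avpr1a, which encodes the V1a vasopressin receptor, differed by 0.21 ± 0.24 and Avpr2, which encodes the V2 receptor, by 0.02 ± 0.22. In both the groups overlapped. A further probe of each was not above background on any array, nor were the probes of Avpr1b and of the oxytocin receptor gene Oxtr.

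**Figure D3:**
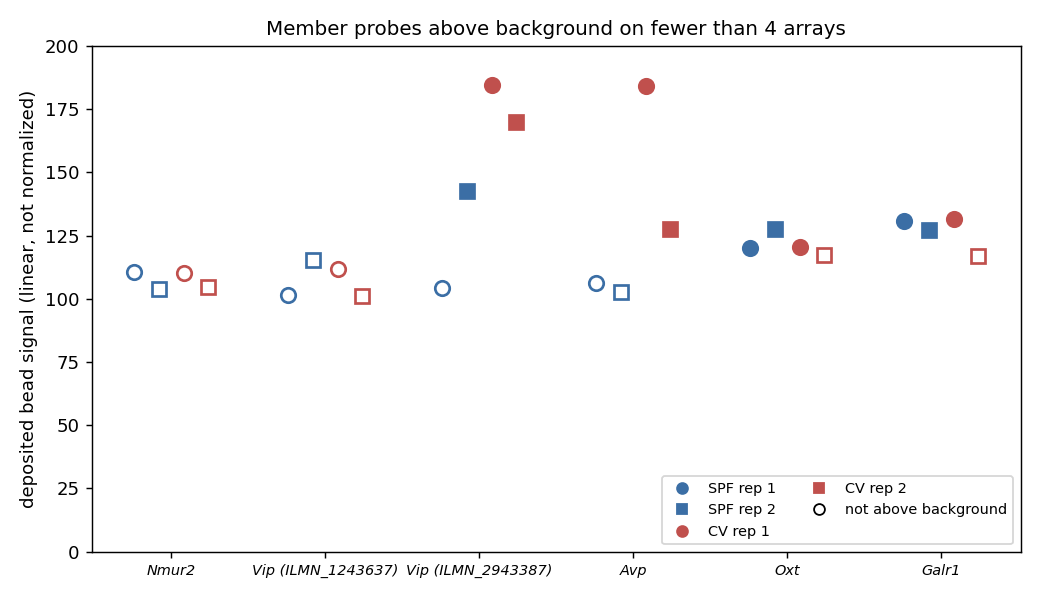
Deposited, non-normalized bead signal of the 6 member probes that were above background on fewer than 4 arrays. Blue is SPF, red is CV, circles are replicate 1, squares replicate 2, and open symbols were not above background. One Vip probe and Avp rise to 184.6 and 184.2 on CV replicate 1, while Nmur2 and the further Vip probe stay between 101 and 115.5 on all arrays.

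Gal, the galanin precursor gene, gave signals of 1442 and 1005.8 in SPF and 3235.8 and 1106 in CV cord. Only CV replicate 1 stood apart: CV replicate 2, at a log2 level of 10.04, lay between the SPF arrays at 10.36 and 9.82, and CV replicate 1 was at 11.62. The difference was 0.74 ± 0.44, with overlapping groups. It was -0.05 without CV replicate 1 and 1.53 without CV replicate 2. The 2 CV arrays differed 2.98-fold, a gap reached by 0.280% of kept probes. Galr1, an inhibitory galanin receptor gene, gave signals of 130.7 and 127.2 in SPF and 131.7 and 116.8 in CV cord, above background on all but CV replicate 2, with a difference of -0.08 ± 0.26 and overlapping groups. The difference of Galr1 was 0.20 without CV replicate 2 and -0.37 without CV replicate 1. The probes of Galr2 and Galr3 were not above background on any array.

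**Figure D4:**
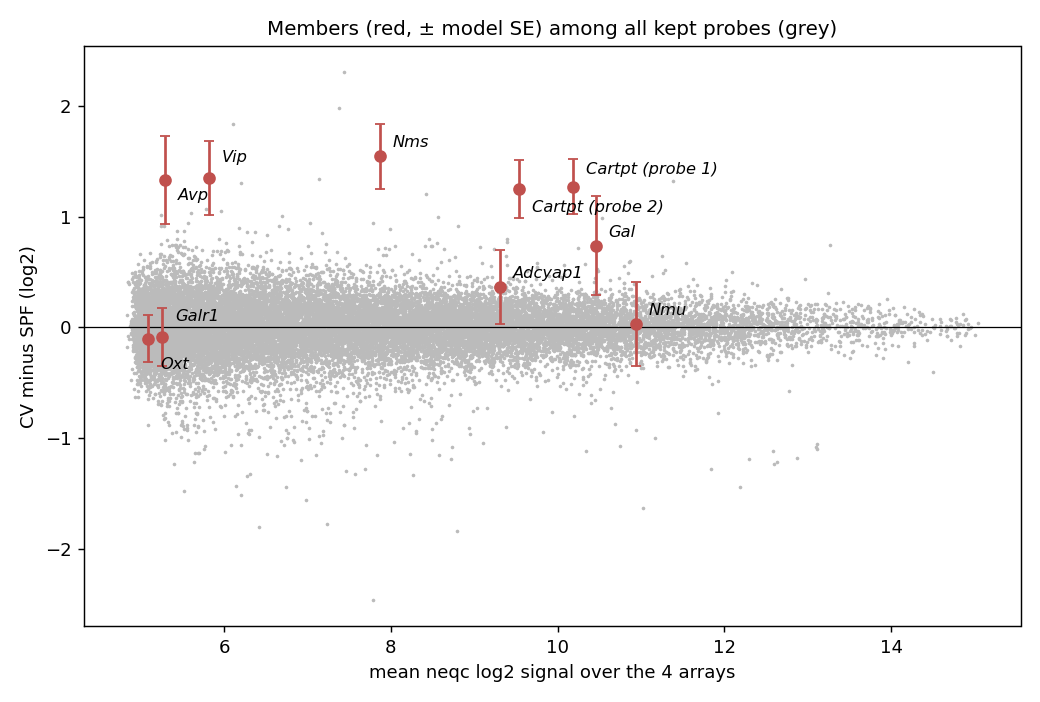
CV minus SPF difference in log2 units (y axis) against the mean normalized log2 signal over the 4 arrays (x axis) for all 21065 kept probes (grey) and the kept member probes (red, bars are ± the model's standard error). Nms, Cartpt, Vip and Avp lie above 1, Gal at 0.74, and Nmu, Oxt and Galr1 near 0.

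CV replicate 1 was the highest of the 4 arrays for 9 of the 10 kept member probes, all but that of Oxt. Over all kept probes it was the highest for 24.01%. The count of kept member probes with the CV arrays above the SPF arrays was 9 without CV replicate 2 and 8 without SPF replicate 1. This order is easier to meet with an array left out, and its share over all kept probes was not computed there. Nothing is read from these counts. The differences of Nmu, Adcyap1, Gal and Galr1 changed sign in at least 1 of the 4 fits that left out an array. For probes whose groups do not overlap the sign is fixed, so only the size of their difference can change there.

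**Figure D5:**
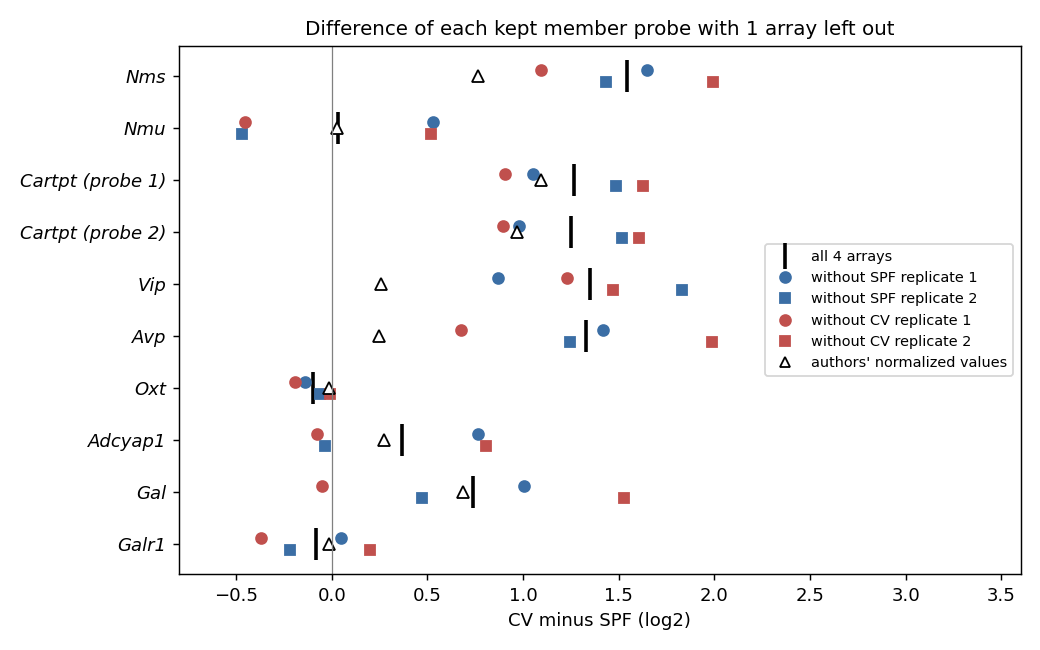
CV minus SPF difference (log2) of each kept member probe with all 4 arrays (black bar), with each array left out in turn (coloured symbols) and in the authors' normalized values (open triangles). Avp spans 0.67 to 1.99 with an array left out, and Nmu, Adcyap1, Gal and Galr1 have values on both sides of 0.

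Genes of the same signalling systems outside the members gave few readable probes. Of 10 further receptor genes, 9 had a probe and 3 were kept (Adcyap1r1, Avpr1a and Avpr2), with 3 of 3 higher in CV cord, 0 without overlap and a median difference of 0.21, against 0.01 over all kept probes. Of 5 related peptide genes, only Sct, the secretin gene, was kept (-0.16 ± 0.22, overlapping). Of 7 genes of precursor cleavage, amidation and folding, 5 were kept, 3 higher and 2 lower, with a median of 0.18. Qsox1, a sulfhydryl oxidase, differed by -0.47 ± 0.23, Pam, the enzyme that amidates many neuropeptides, by 0.29 ± 0.21 and the secretogranin gene Scg5 by 0.20 ± 0.10, each without overlap between the groups, an order found in 16.4% (higher) and 14.5% (lower) of all kept probes. None of these genes passed the test over all probes.

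Galanin, VIP and PACAP genes are known to be induced in sensory neurons after nerve injury, so other injury genes were set beside them. Of 9 genes, 7 were kept and 7 of 7 were higher in CV cord, 3 of them without overlap (16.4% of all kept probes), with a median of 0.19 (0.01 over all kept probes). The endopeptidase gene Ecel1 differed by 0.64 ± 0.18, the transcription factor gene Jun by 0.41 ± 0.23 and the growth cone gene Gap43 by 0.27 ± 0.14. None passed the test over all probes. Atf3, a transcription factor switched on by axon damage, was above background on 1 SPF array and on neither CV array.

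Markers of the cells the tissue could hold were read on the same arrays. Of dorsal root ganglion neuron markers, 7 had a probe and 1 (Pou4f1, 0.13 ± 0.22) was kept. Trpv1, Scn11a, Mrgprd and P2rx3, which define sensory neurons, were not above background on any array. Of hypothalamic peptide markers, 5 had a probe, Trh and Pmch were kept, and Hcrt, Crh and Kiss1 were not above background on any array. Pmch, which encodes melanin-concentrating hormone, was higher on both CV arrays, an order found in 16.4% of all kept probes. Its log2 levels were 5.97 and 5.79 against 5.37 and 5.37 in SPF cord (0.51 ± 0.21), while a further probe of it was not above background. Trh overlapped between the groups (0.21 ± 0.33). General neuronal markers (5 of 8 kept, 3 of 5 higher, median 0.10), dorsal horn neuron markers (6 of 8 kept) and astrocyte markers (3 of 5 higher, median 0.06) were read, as the label of the tissue requires. So were oligodendrocyte markers (4 kept, 4 of 4 lower, median -0.15). Of these, 2 were without overlap, an order found in 14.5% of all kept probes. Opalin, a myelin gene named here after its values were seen, had the widest difference of the last list (-0.92 ± 0.11). The neuronal probes of Snap25 and Nefl and the glycine transporter probe of Slc6a5 were not above background on any array, although these genes define neurons of the cord.

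The values of other lists are set beside those of Nms, Cartpt, Vip and Avp, and no gene in them passed the test over all probes. Cholinergic and motor neuron markers were higher in CV cord for 6 of 6 kept genes, 5 without overlap (16.4% of all kept probes), with summed normalized signals of 1428 and 2058 in SPF and 2260 and 2970 in CV cord. Microglia markers were lower for 6 of 7 genes, 2 without overlap (14.5% of all kept probes), with overlapping sums of 2471 and 1757 against 1941 and 1446. Red blood cell markers were lower for 4 of 4 genes, 4 without overlap (14.5% of all kept probes), with sums of 42944 and 29343 in SPF and 20893 and 13009 in CV cord. Skeletal muscle markers were lower for 6 of 6, 3 without overlap (14.5% of all kept probes), with overlapping sums of 1422 and 454 against 552 and 333. Meningeal fibroblast markers were lower for 9 of 9, 1 without overlap (14.5% of all kept probes), with overlapping sums of 5317 and 24391 against 8320 and 2586. The part of these lists in the members' values was not tested. Dorsal horn neuron markers had 2 of 6 kept genes higher and 4 lower, with a median of -0.02 and sums from 21593 to 22188 over the 4 arrays.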

How the data were processed

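Bead signals of 4 arrays were used as deposited: linear intensity values, not normalized per the file headers, each with a detection p-value that the authors deposited beside it. The authors' normalized intensity table served as an alternative. The submitters' processing notes name lumi. Its settings, the scanning software and a build are not given in the sources read. Group and replicate number came from the titles.

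Background correction and quantile normalization used limma's neqc (limma 3.58.1, R 4.3.3, offset 16), with negative-control statistics inferred from the detection p-values. Probes with a detection p under 0.05 on at least 2 arrays were kept, each as a feature. Groups were compared by two-sided tests from lmFit and trended eBayes, and p-values were Benjamini-Hochberg adjusted across the kept probes. The fit was tested on simulated data. Symbols came from the platform annotation (34885 probes with 1 symbol, 18 with several, 10378 with none), checked against RefSeq, which changed 0. Lists use 1 probe per gene, the kept probe with the highest mean, and sums are over unlogged normalized signals.

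The members and lists were chosen with earlier results of these data known. Every member probe, every kept receptor probe and the 3 kept genes of largest difference in each other pathway list were named. Marker lists are given by counts, medians and sums, with single markers named where at background. Some kept markers, such as Pmch and Opalin, were also named with their values, and part of these were chosen after the values were seen. Alternatives covered background correction, normalization, the authors' table, filters, 1 probe per gene, variance models, a replicate block, the threshold and each array left out. The number of arrays limits the precision. Same-numbered arrays deviated together (correlation 0.22 over kept probes), but with 2 pairs and no label for the pairing the number was not taken as a block.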

Additional observations from a re-analysis of the deposited data

How the results depend on the processing

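The count of probes past the adjusted threshold in limma was 0 under all processing choices except the replicate block, which called 14 probes of 7 genes. Of these, 10 probes were of globin genes and 0 were member probes. Same-numbered arrays are not labelled as pairs. With 1 array left out the count ran from 0 to 2. The 2 calls, Lcn2 and Erdr1, came without CV replicate 2 and are no members. The count of member probes with both CV arrays above both SPF arrays was 5. It was 3 of 6 probes where a detection p under 0.01 on all 4 arrays was required, since the dim Vip and Avp probes then drop out. With 1 array left out the count of member probes in this order ran from 5 to 9. The order is easier to meet there, and its share over all kept probes was not computed. At a detection p under 0.01 on at least 2 arrays, 7 of the 12 member probes were above background, against 10.

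The sign of each member difference held without background correction, with median scaling, with cyclic loess and in the authors' values. The filters, 1 probe per gene, the variance models and the replicate block use the same normalized values, so they could not change a difference. The differences of Nms, Vip and Avp moved by more than 1 SD of the replicates, pooled over the groups, without background correction (1.07, 0.51 and 0.51) and in the authors' values (0.76, 0.26 and 0.25). The first adds a constant to uncorrected signals and the second compresses low values. The Vip and Avp probes lie near background in SPF cord. The Nms probe was low there but above background on both SPF arrays, with signals of 239.9 and 221.6. Signal over background limits what can be said of Nmur2, Oxt, Galr1, Avp and Vip.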

Other observations

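The order of arrays seen for Nmu and Adcyap1, with the array numbered 1 above the array numbered 2 in each group, was found in 6 of the 10 kept member probes and in 30.9% of all kept probes. Genes of other lists with this order, chosen after their values were seen, are given here as values. Npy, which encodes neuropeptide Y, stood at log2 levels of 10.88 and 10.23 in SPF and 11.15 and 10.34 in CV cord. Trh, which encodes thyrotropin-releasing hormone, stood at 7.91 and 6.90 against 7.76 and 7.47. Tlx3, a transcription factor gene of excitatory dorsal horn neurons, stood at 8.26 and 7.46 against 7.92 and 6.79. The cholinergic marker Slc18a3 ran the other way, at 8.09 and 8.47 against 8.67 and 9.30.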
